A study of Mus musculus with 12 samples.

Results

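Histone genes were drawn from the protein-coding genes of both deposited count tables by their symbols, as those of the linker histones (H1f), the core histones H2A, H2B, H3 and H4 (H2ac, H2bc, H3c, H4c, H4f) and the named variants (H2az, H2ax, H2aj, H3f, Macroh2a). The rule found 37 genes among the 19760 genes of the tables together. The whole-kidney table listed 29 of its 15361 genes as histone genes, the F4/80+ table listed 31 of its 18145, and 23 were in both. Of the 37, 25 are replication-dependent genes (19 listed in kidney, 20 in F4/80+ cells), 10 are variant genes (10 in kidney, 9 in F4/80+ cells) and 2 are the germline linker histones H1f6 and H1f8, listed in F4/80+ cells. By position 22 of the 37 are on chromosome 13 and 5 on chromosome 3, where the replication-dependent genes of the mouse lie in clusters.

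The libraries came from mice made homozygous with CRISPR-Cas9 for the Trp or the Arg allele of a coding Sh2b3 polymorphism. Sh2b3 is the gene of the cytokine signalling adaptor LNK. All mice had received angiotensin II for 4 weeks to raise blood pressure. The groups were Trp/Trp F4/80+ cells, Arg/Arg F4/80+ cells, Trp/Trp whole kidney and Arg/Arg whole kidney, with 3 biological replicates each, and no group went without angiotensin II. F4/80+ cells were taken with antibody-coated microbeads after a Percoll gradient from kidneys other than those sequenced whole. The sources used here do not give strain, sex or age.

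Replication-dependent histone genes are transcribed in S phase, have no introns as a rule and give mRNAs that end in a conserved stem-loop in place of a poly(A) tail. The stem-loop is bound by SLBP, and the 3′ end is cut by a complex that carries the U7 small nuclear RNP. Variant histone genes as a rule lie outside the clusters, are transcribed throughout the cell cycle and give polyadenylated mRNAs. Some replication-dependent genes also give polyadenylated mRNAs in differentiated cells. The libraries were poly(A)-selected, so a count for a replication-dependent gene here is not a measure of its stem-loop-ended mRNA.

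The annotated transcripts show how unlike the histone genes are at their 3′ ends. The conserved histone stem-loop, a run of 16 bases, was in an annotated transcript (GENCODE vM21, mm10) of 21 of the 25 replication-dependent genes, of 1 of the 10 variants, H2ax, and of 1 of the 2 germline genes. A poly(A) signal, AATAAA or ATTAAA in the last 60 bases, was in 8 of the 25 replication-dependent genes and in 8 of the 10 variants. The stem-loops of the genes on which the results below turn, with the loop and its stem in capitals, were:
H1f2: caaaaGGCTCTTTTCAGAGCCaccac
H1f4: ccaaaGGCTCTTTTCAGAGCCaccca
H4c4: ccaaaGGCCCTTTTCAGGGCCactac
H4c9: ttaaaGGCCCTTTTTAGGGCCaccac
H2ax: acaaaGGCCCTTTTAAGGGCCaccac
These are RNA-sense strands, 5′ to 3′, of genes on chromosomes 13 and 9. H1f2, a replication-dependent linker histone, and H1f4, another, have the same 16 bases, and the H4 genes and H2ax have a stem of another sequence. In H1f2 the annotated transcript runs 840 bases past the stem-loop, which lies 24 bases after the stop codon, and has a poly(A) signal. In H1f4 it runs 1153 bases past it and in H4c4 770 bases. The 4 replication-dependent genes with no match were H2bc4, H2bc21, H1f1 and H2ac12, and the annotated transcripts of the first 2 are long. That of H2bc4, an H2B gene, is spliced 9 bases after the stop codon over an intron of 7554 bases into a second exon, and that of H2bc21, an H2B gene of the chromosome 3 cluster, has a 3′ UTR of 2192 bases. H1f1 has an annotated 3′ UTR of 48 bases, in which no match was found. That of H2ac12 has 2 bases, too short to hold a match. Exons of 12 of the 37 genes overlap those of another annotated gene, on the opposite strand for 10 of them, namely H1f0, H1f10, H2ac6, H2ac12, H2ac20, H2aj, H2ax, H3f3a, Macroh2a1 and Macroh2a2, and the sources used here do not say whether counting used the strand. On the same strand H2ac6 also overlaps the rRNA gene Gm24991 by 108 bases, and H1f10 the miRNA gene Gm47286 by 24 bases.

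Promoter sequences from RefSeq (GRCm38.p6, 250 bases before to 50 after the start) were matched for 32 of the 37 genes, with 33 promoters. CCAAT, searched like all motifs on both strands, was in 19 of 22 promoters of replication-dependent genes (86.4%), against 37.4% of all 32851 mouse promoters of the same length. The octamer ATTTGCAT, a site of the POU factor OCT1, was in 3 of 3 promoters of replication-dependent H2A genes and 4 of 6 of H2B genes, against 1.74% of all promoters. TATAAA was in 12 of 22 (54.5%), against 13.6% of all. The promoters of H2ac12 and H2bc12 overlap on opposite strands, so the same CCAAT, octamer and TATAAA letters were counted for both. The 6 H2B promoters also include both of those of H2bc6, so these counts are not of independent promoters. The H1 box, AAACACA, was in 3 of 4 promoters of replication-dependent linker histones, namely H1f2, H1f3 and H1f4, against 7.18% of all. The promoters of H1f2 and H1f4, which had the smallest p-values among histone genes in the kidney comparison, are shown with the CCAAT, H1 box and TATAAA letters in capitals, for H1f2 from chr13:23738557-23738856 on the plus strand and for H1f4 from chr13:23622509-23622808 on the minus strand:
H1f2: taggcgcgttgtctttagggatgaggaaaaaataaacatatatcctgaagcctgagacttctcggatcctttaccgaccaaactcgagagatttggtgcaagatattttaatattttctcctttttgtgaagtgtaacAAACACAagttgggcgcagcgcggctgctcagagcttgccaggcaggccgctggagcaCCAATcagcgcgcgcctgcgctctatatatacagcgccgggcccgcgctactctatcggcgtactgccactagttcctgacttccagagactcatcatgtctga
H1f4: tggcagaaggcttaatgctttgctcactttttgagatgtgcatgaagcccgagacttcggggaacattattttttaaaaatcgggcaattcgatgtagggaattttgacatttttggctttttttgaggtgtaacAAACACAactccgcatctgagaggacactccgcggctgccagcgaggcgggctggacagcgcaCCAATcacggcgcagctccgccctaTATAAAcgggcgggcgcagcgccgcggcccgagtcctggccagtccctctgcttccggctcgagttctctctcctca
Both hold the H1 box upstream of a CCAAT box. TATAAA follows the CCAAT box in H1f4, and these letters are not in the H1f2 window.

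Levels are given as CPM over nuclear protein-coding counts, which numbered 6.88 to 11.1 M (M for mega) per F4/80+ library and 17.8 to 49.99 M per kidney library. Histone genes together took 1191 to 1530 CPM in F4/80+ libraries and 1223 to 1431 CPM in kidney libraries. The level of Sh2b3 does not show which allele a library carries, so the genotype labels were not checked by it. The macrophage marker list, which includes Adgre1, the gene of F4/80, and Csf1r, summed to 55.3 to 312 CPM in F4/80+ libraries and 260.0 to 551 CPM in kidney libraries with no marker at 0, while 10 proximal tubule markers summed to 14550 to 45820 CPM in F4/80+ libraries and 23860 to 29280 CPM in kidney. The macrophage markers did not move together between sample types. In the edgeR fit of sample type 3 of the 10 were higher in F4/80+ cells, among them Cd68 (mean 8.08 CPM in F4/80+ cells and 3.29 CPM in kidney) and Lyz2 (mean 48.1 CPM in F4/80+ cells and 23.3 CPM in kidney), and 5 lower, among them Csf1r and Cd74, while Adgre1 was not called. Cd74 alone took 139 to 343 CPM in kidney libraries. The F4/80+ libraries are called by the label of their isolation. In such bulk samples, fewer cells of a type and less RNA per cell cannot be told apart.

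A few genes made up nearly all histone counts. Per kb of exon, H2bc4 had the highest mean in both sample types, at 183.5 ± 53.8 CPM per kb in F4/80+ cells and 135 ± 6.30 CPM per kb in kidney (SD, n = 6 each). In kidney it stood apart from the next gene in every library, and after it came H1f0, the linker histone of non-dividing cells, at 99.6 ± 12.02, H3f3b, a gene of the replacement histone H3.3, at 85.8 ± 7.67, and H1f2 at 74.8 ± 13.1 CPM per kb, whose ranges overlapped in turn. In F4/80+ cells H3f3b was above H2bc4 in Trp/Trp replicate 2 and Arg/Arg replicate 1. H3f3b, H2az1, H1f0, H3f3a and H1f2 followed H2bc4 there by their means, and each overlapped the next in range, from 134 ± 36.2 CPM per kb for H3f3b to 45.7 ± 4.73 for H1f2. H2az1 encodes the variant H2A.Z, which marks promoters and regulatory regions, and H3f3a is the other H3.3 gene. Most genes of the clusters were near the floor, as the plot of levels shows.

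**Figure D1:**
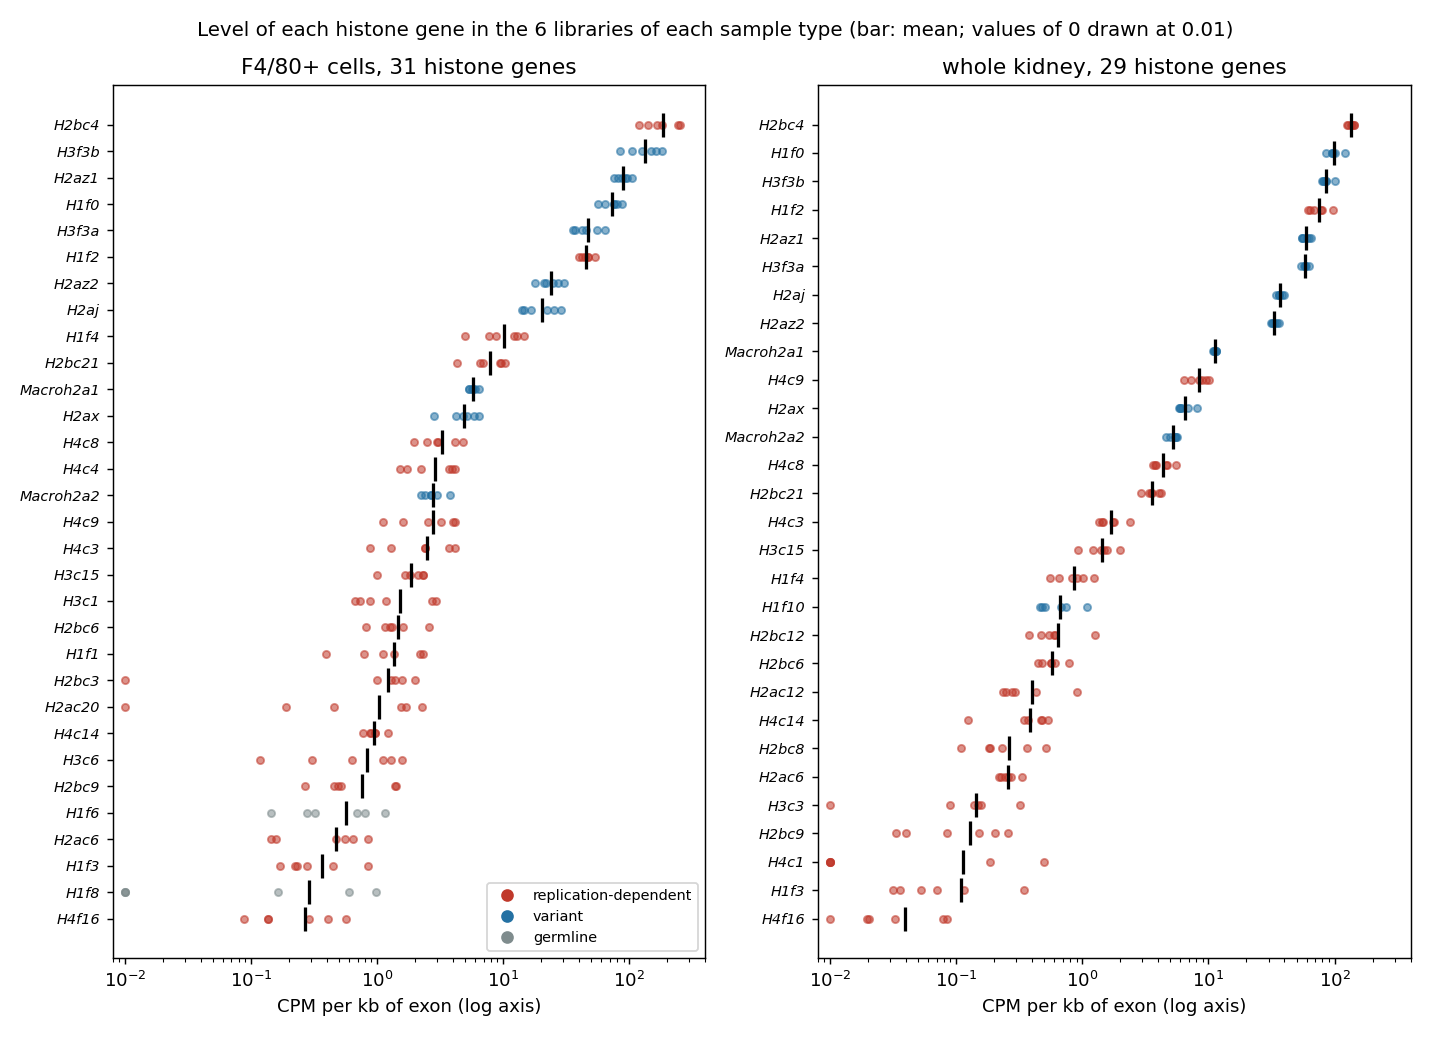
Level of each listed histone gene, in CPM per kb of exon on a log axis, in the 6 libraries of F4/80+ cells (left) and of whole kidney (right), with points for libraries, black bars for means and colours for gene class. H2bc4 has the highest mean in both panels, variant genes fill most of the upper ranks, and most replication-dependent genes lie under 5 CPM per kb.

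Replication-dependent genes took 26.2% of histone counts in F4/80+ cells and 23.3% in kidney, and the 3 genes H1f2, H2bc4 and H2bc21 held most of that. The other 17 replication-dependent genes summed to 48.0 ± 10.1 CPM in F4/80+ libraries (3.54% of histone counts), and the other 16 to 18.5 ± 3.13 CPM in kidney libraries (1.43% of histone counts; SD, n = 6 each). Single genes of the clusters were often counted in a handful of reads. H4c1, for example, had 13 counts over the 6 kidney libraries with 4 libraries at 0, and the germline linker histone H1f8 had 19 over the 6 F4/80+ libraries with 3 at 0.

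The first comparison asked whether histone genes in whole kidney differed by genotype. Replication-dependent genes were mostly lower in Trp/Trp kidneys, with the linker histones H1f2, H1f4 and H1f3 in front, but no histone gene passed the edgeR quasi-likelihood test after adjustment over all genes. H1f2 was at 107, 100.4 and 96.3 CPM in Trp/Trp kidneys 1, 2 and 3, against 152, 122 and 123 CPM in Arg/Arg kidneys 1, 2 and 3. Every Trp/Trp library was below every Arg/Arg library, and Arg/Arg replicate 1 was the highest. The means were 101 ± 5.33 CPM in Trp/Trp and 132 ± 17.1 CPM in Arg/Arg kidneys (SD, n = 3 each). The log2 fold change, Trp/Trp over Arg/Arg as in all genotype comparisons, was -0.40 ± 0.09 (SE), with an unadjusted p of 0.00113 and an adjusted p of 0.843 in edgeR.

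The filter on low counts left 22 of the 29 histone genes of the kidney table to be tested. edgeR called 0 of them, as it called 0 of 14464 genes (percent called 0), with a smallest adjusted p of 0.843. At an unadjusted p under 0.05, 3 were lower and 0 higher, where 2.03% of all genes were lower and 3.68% higher, and without Arg/Arg replicate 1 the count was 1 in all (1 to 4 with any library left out). DESeq2 called 1 histone gene, H1f2 (adjusted p = 0.0161), where it called 0.0977% of genes, and the authors' deposited table gave H1f2 an adjusted p of 0.0152 among its 15 called genes (0.103% of those with an adjusted p). With a library left out, the DESeq2 log2 fold change of H1f2 ran from -0.46 without Arg/Arg replicate 2 to -0.30 without Arg/Arg replicate 1, and its adjusted p from 0.00999 to 0.208. H1f2 was not called without Arg/Arg replicate 2, Trp/Trp replicate 2 or Trp/Trp replicate 3. In direction, 18 of the 22 log2 fold changes were below 0, where 49.4% of all genes were. Among replication-dependent genes 11 of 12 were below 0 with a median of -0.40, and among variants 7 of 10 with a median of -0.04 (5 of 10 without TMM scaling), beside a median of 0.002 over all genes.

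H1f4 was at 1.27, 1.60 and 1.07 CPM in Trp/Trp kidneys, against 2.39, 1.96 and 1.74 CPM in Arg/Arg kidneys, with a log2 fold change of -0.62 ± 0.25 (SE; edgeR unadjusted p = 0.0348). Its exons overlap those of the H2B gene H2bc6 by 496 bases on the same strand, and both overlap the pseudogene Gm11398, so reads of these genes may have been shared or left out in counting. H2bc6 was at 1.97, 2.50 and 2.14 CPM in Trp/Trp kidneys and 3.48, 2.52 and 2.71 CPM in Arg/Arg kidneys. H4c8, an H4 gene, was at 1.76, 1.70 and 1.799 CPM in Trp/Trp, against 2.58, 2.22 and 2.17 CPM in Arg/Arg kidneys. For H1f2, H1f4, H2bc6 and H4c8 every Trp/Trp library was below every Arg/Arg library, which held for 3.67% of all tested genes, and 0 histone genes showed the opposite order, which held for 6.59%. H1f3, also a linker histone, rested on 1 library. It was at 0.520, 0.236 and 0.394 CPM in Trp/Trp kidneys, against 2.58, 0.860 and 0.268 CPM in Arg/Arg kidneys, and its log2 fold change of -1.72 ± 0.73 (SE; edgeR unadjusted p = 0.0424) was -0.67 without Arg/Arg replicate 1.

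H2bc21 was at 8.88, 9.28 and 7.59 CPM in Trp/Trp kidneys, against 10.97, 9.14 and 10.6 CPM in Arg/Arg kidneys, and the genotypes overlapped. H1f0 was at 177, 196 and 200 CPM in Trp/Trp kidneys, against 251, 196 and 209 CPM in Arg/Arg kidneys, with a log2 fold change of -0.21 ± 0.10 (SE). H3f3b was at 255, 235 and 242 CPM in Trp/Trp kidneys, against 299, 253 and 247 CPM in Arg/Arg kidneys, with a log2 fold change of -0.15 ± 0.08 (SE). In both variants the genotypes overlapped and Arg/Arg replicate 1 was again the highest. Without that library the log2 fold changes were -0.10 for H1f0 and -0.06 for H3f3b. The other abundant genes lay closer together, with log2 fold changes of -0.08 for H2bc4, -0.08 for H3f3a and 0.02 for H2az1.

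Summed over the class, replication-dependent genes were at 277, 276 and 283 CPM in Trp/Trp kidneys 1, 2 and 3, against 349, 308 and 312 CPM in Arg/Arg kidneys. The sum without H1f2, H2bc4 and H2bc21 was at 14.5, 17.8 and 15.4 CPM in Trp/Trp, against 22.6, 20.1 and 20.4 CPM in Arg/Arg kidneys. The groups did not overlap in either sum. Variant genes summed to 972, 947 and 961 CPM in Trp/Trp, against 1082, 963 and 1011 CPM in Arg/Arg kidneys, and here Trp/Trp replicate 1 was above the lowest Arg/Arg library. Erythroid markers summed to 28.2, 19.3 and 21.4 CPM in Trp/Trp kidneys, against 52.2, 24.2 and 27.9 CPM in Arg/Arg kidneys, so Arg/Arg replicate 1, the highest library for H1f2, H1f0 and H3f3b, was also highest here. B and plasma cell markers summed to 87.0 CPM in Trp/Trp replicate 1 and to 3.51 to 5.06 CPM in the other 5 kidneys. Without Arg/Arg replicate 1, 12 of 13 replication-dependent genes were below 0 with a median of -0.29, and without Trp/Trp replicate 1, 10 of 12 with a median of -0.27. Macrophage markers summed to 344 to 551 CPM in Trp/Trp and 260.0 to 308 CPM in Arg/Arg kidneys, with 8 of 10 higher at an unadjusted p under 0.05. T and NK cell markers summed to 7.86 to 11.9 CPM in Trp/Trp and 3.96 to 5.42 CPM in Arg/Arg kidneys, with 4 of 5 higher at an unadjusted p under 0.05. The part of these cells in the result was not tested.

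**Figure D2:**
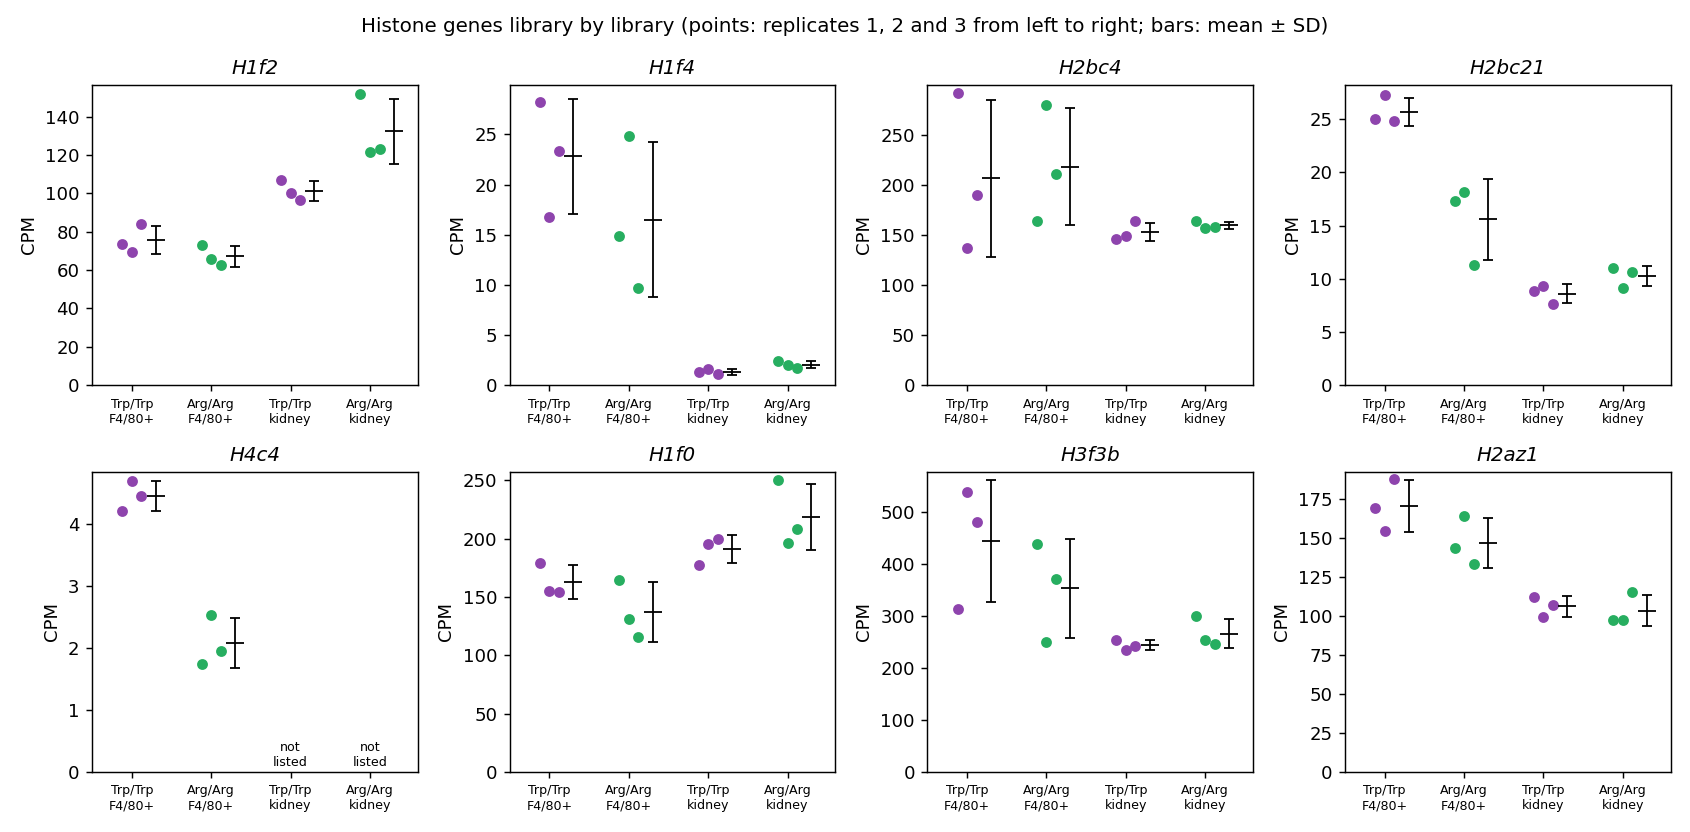
CPM of 8 histone genes in each library of Trp/Trp F4/80+ cells, Arg/Arg F4/80+ cells, Trp/Trp kidney and Arg/Arg kidney, with points for replicates 1, 2 and 3 from left to right and bars for mean ± SD. H1f2 is below Arg/Arg in all 3 Trp/Trp kidneys and overlaps in F4/80+ cells, while H2bc21 and H4c4 are above Arg/Arg in all 3 Trp/Trp F4/80+ libraries.

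The second comparison asked the same of F4/80+ cells, where H2bc21 and H4c4 were higher in every Trp/Trp library and H1f2 overlapped between genotypes. H2bc21 was at 25.0, 27.2 and 24.8 CPM in Trp/Trp F4/80+ libraries 1, 2 and 3, against 17.3, 18.2 and 11.2 CPM in Arg/Arg F4/80+ libraries. Its log2 fold change was 0.59 ± 0.25 (SE; edgeR unadjusted p = 0.0366, adjusted p = 0.608). H4c4, an H4 gene whose stem-loop is printed above and which the kidney table did not list, was at 4.22, 4.70 and 4.46 CPM in Trp/Trp, against 1.74, 2.53 and 1.96 CPM in Arg/Arg F4/80+ libraries. These stood for 34 to 47 counts in Trp/Trp and 12 to 20 counts in Arg/Arg libraries. Its log2 fold change was 0.95 ± 0.40 (SE; edgeR unadjusted p = 0.0381, adjusted p = 0.609). H2ax, the variant whose phosphorylated form marks DNA breaks, was at 8.17, 7.16 and 8.93 CPM in Trp/Trp, against 5.82, 6.70 and 3.91 CPM in Arg/Arg F4/80+ libraries, with a log2 fold change of 0.44 ± 0.34 (SE), which became 0.27 when Arg/Arg replicate 3 was left out and 0.67 when Arg/Arg replicate 2 was.

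The filter left 23 of the 31 histone genes of the F4/80+ table, and edgeR called 0 of them and 0 of 15225 genes (percent called 0). At an unadjusted p under 0.05, 2 were higher and 0 lower, where 4.43% of all genes were higher and 3.61% lower. The count was 0 without Arg/Arg replicate 3 or Trp/Trp replicate 1, 1 without Arg/Arg replicate 1, Trp/Trp replicate 2 or Trp/Trp replicate 3, and 3 without Arg/Arg replicate 2, and 0 in DESeq2. H2bc21, H4c4 and H2ax were higher in Trp/Trp without overlap, a count of 3 of 23 where 7.19% of all tested genes were, and 0 were lower in this way, where 3.33% were. DESeq2 called 0 histone genes and 4 genes in all (0.0234%), and the authors' deposited table called 0 of the 8 histone genes to which it gave an adjusted p, where it called 20 genes (0.368%). Log2 fold changes were above 0 for 15 of 23 histone genes, where 51.1% of all genes were, and without Arg/Arg replicate 1 for 10 of 24. Replication-dependent genes had a median of 0.12 and variants of 0.08, beside 0.01 over all genes.

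H1f2 was at 73.4, 69.4 and 83.8 CPM in Trp/Trp F4/80+ libraries, against 72.8, 66.0 and 62.4 CPM in Arg/Arg F4/80+ libraries, with a log2 fold change of 0.05 ± 0.21 (SE). H2bc4 was at 292, 137 and 190.0 CPM in Trp/Trp, against 164, 280 and 211 CPM in Arg/Arg F4/80+ libraries. The library-to-library range of H2bc4 was thus wider than the difference of its genotype means, with Trp/Trp replicate 1 and Arg/Arg replicate 2 on top. In the same 2 libraries H3f3b was lowest, at 313, 539 and 482 CPM in Trp/Trp, against 439, 251 and 372 CPM in Arg/Arg F4/80+ libraries. Proximal tubule markers summed to 26590, 14550 and 23910 CPM in Trp/Trp, against 22150, 45820 and 40840 CPM in Arg/Arg F4/80+ libraries, and macrophage markers to 188, 273 and 312 CPM in Trp/Trp, against 199, 68.7 and 55.3 CPM in Arg/Arg F4/80+ libraries. Of the 10 macrophage markers 8 had an unadjusted p under 0.05 in edgeR, all higher in Trp/Trp, and of the 10 proximal tubule markers 5 did, all lower. Distal nephron markers summed to 12130, 19450 and 10360 CPM in Trp/Trp, against 13090, 5397 and 5067 CPM in Arg/Arg F4/80+ libraries, and 4 of the 6 had an unadjusted p under 0.05, all higher. In these 3 lists edgeR called 0 genes after adjustment. The part of these cells in the histone values was not tested.

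**Figure D3:**
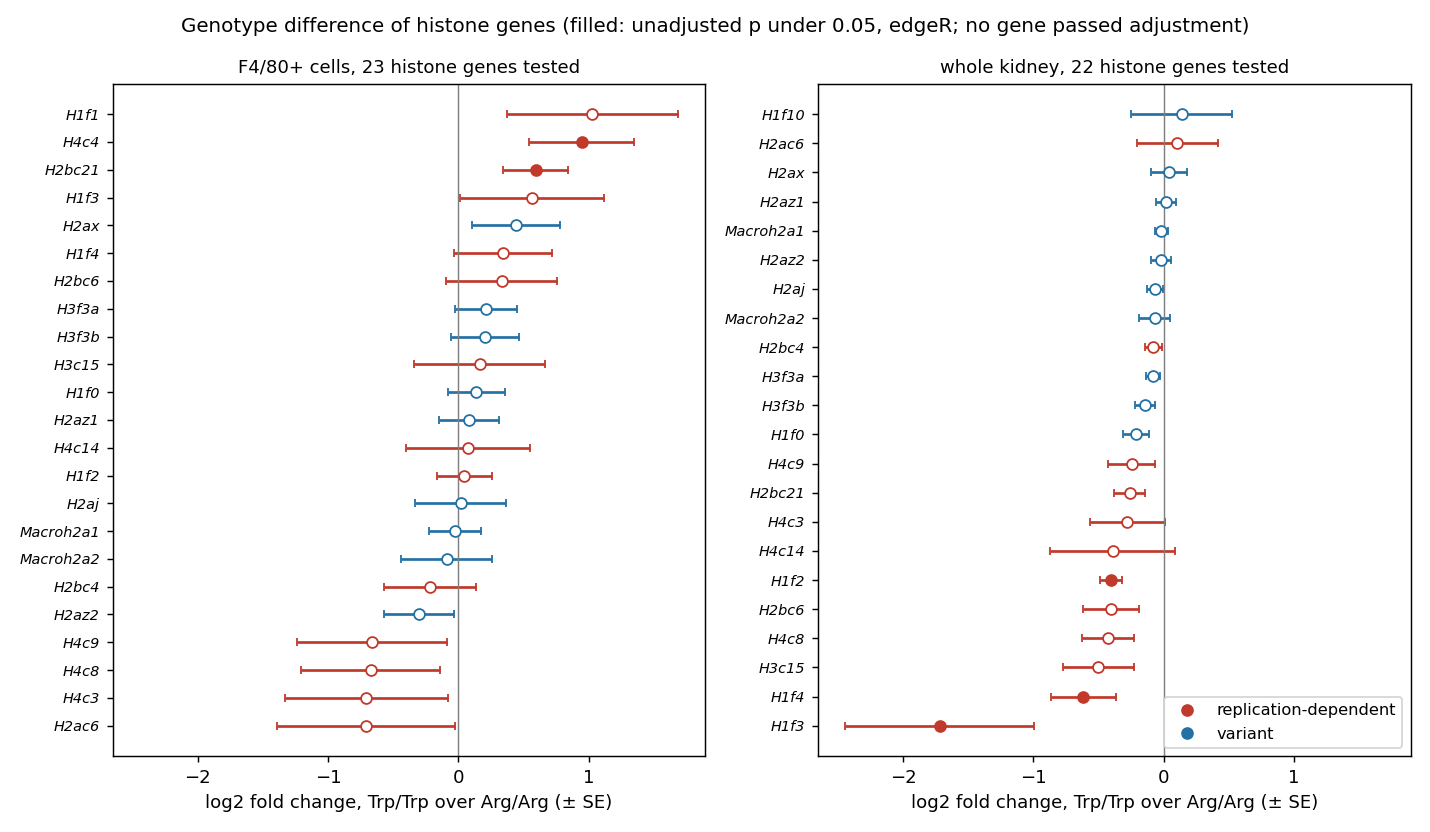
Log2 fold change of Trp/Trp over Arg/Arg ± SE for the histone genes tested in F4/80+ cells (left) and whole kidney (right), coloured by class, with filled points for an unadjusted p under 0.05 in edgeR. In kidney 11 of 12 replication-dependent genes lie below 0, in F4/80+ cells 9 of 14 lie above 0, and no gene passed adjustment.

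The difference between these genotype effects was fitted as an interaction over all 12 libraries for the 23 histone genes in both tables. edgeR called 0 of the 23 and 0 of 13578 genes (percent called 0), while DESeq2 called 7 genes (0.051%), 0 of them histone genes. At an unadjusted p under 0.05, 3 histone genes had a positive interaction, where 3.22% of all genes did, and 0 a negative one, where 3.56% did. H2bc21, which had a log2 fold change of 0.59 in F4/80+ cells and -0.26 in kidney, had an interaction of 0.85 ± 0.25 (SE; edgeR unadjusted p = 0.00539, adjusted p = 0.684). H1f2 had 0.43 ± 0.19 (SE; edgeR unadjusted p = 0.0368) and H1f3 2.28 ± 1.01 (SE; edgeR unadjusted p = 0.0419), which was 1.22 without Arg/Arg kidney replicate 1. The 3 genes at an unadjusted p under 0.05 became 1 to 5 when a library was left out, with 1 without Arg/Arg kidney 1, Trp/Trp kidney 2, Trp/Trp kidney 3 or Arg/Arg F4/80+ 3, and 5 without Trp/Trp F4/80+ 1. For H2bc21 DESeq2 called the interaction without Arg/Arg F4/80+ replicate 1 (0.84, adjusted p = 0.0294) and without Arg/Arg F4/80+ replicate 2 (1.03, adjusted p = 0.0348), where it called 1466 and 4 genes in all, and not with all 12 libraries (adjusted p = 0.180).

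The third comparison set F4/80+ cells against whole kidney over both genotypes, for the 23 histone genes in both tables. More replication-dependent genes were higher than lower in F4/80+ cells, in part through genes of low count, and variant genes were mostly lower. edgeR called 64.3% of the 13578 genes in this comparison, 32.3% higher and 32% lower, so its calls for 18 of 23 histone genes, 11 higher and 7 lower, stand beside a high background. By class, 9 replication-dependent genes rose and 2 fell of 14, with a median log2 fold change of 1.07. Of 9 variant genes 2 rose and 5 fell, with a median of -0.33, beside -0.01 over all genes. The filter on low counts could keep H4f16 and H2bc9, at most 0.24 and 0.434 CPM in kidney libraries, only through their F4/80+ libraries. They could thus enter only as higher. H2ac6, at 0.542 to 0.826 CPM in kidney libraries, also had too few kidney counts to pass without F4/80+ libraries. The same held for H1f3, at 2.58 and 0.860 CPM in Arg/Arg kidneys 1 and 2 and at most 0.520 CPM in the other kidneys. The entry of these genes could lift the count and median of replication-dependent genes. Among replication-dependent genes with a mean count of 73 or more, H1f4, H2bc6, H2bc21 and H2bc4 rose and H1f2 and H4c9 fell. Sample type, isolation and the separate making of the 2 tables cannot be told apart here, and neither can a difference in how far poly(A) selection went.

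H1f4 differed most. It was at 28.3, 16.8 and 23.4 CPM in Trp/Trp and 14.8, 24.9 and 9.69 CPM in Arg/Arg F4/80+ libraries, while every kidney library was at 2.39 CPM or less. It was 12.8-fold higher in F4/80+ cells, a log2 fold change of 3.68 ± 0.25 (SE; edgeR adjusted p = 5.7e-08). H2bc6, which shares exon sequence with it, had 3.62 to 11.5 CPM in F4/80+ libraries and 1.97 to 3.48 CPM in kidney libraries, with a log2 fold change of 1.47 ± 0.25 (SE). H2bc21 had 11.2 to 27.2 CPM in F4/80+ libraries and 7.59 to 10.97 CPM in kidney libraries, with no overlap, and a log2 fold change of 1.21 ± 0.13 (SE; edgeR adjusted p = 2.68e-06). Higher without overlap between sample types were 7 of the 23 histone genes and 2062 of all 13578 genes. H2bc4 rose by a log2 fold change of 0.59 ± 0.19 (SE; edgeR adjusted p = 0.0163), with 137 to 292 CPM in F4/80+ libraries and 146 to 164 CPM in kidney libraries. This call was lost without Arg/Arg F4/80+ replicate 2 (0.45, adjusted p = 0.0503) and in the Trp/Trp libraries alone (0.53, adjusted p = 0.135). Other genes that rose were H1f3, H2bc9, H4f16, H4c14 and H2ac6, all with mean counts under 50 and named to complete the count. The call of H1f3 was lost in the Arg/Arg libraries alone (0.93, adjusted p = 0.309), and the call of H2ac6 (0.92, adjusted p = 0.0476) was lost in 19 alternatives, with a value of 0.28 without Trp/Trp F4/80+ replicate 2.

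The replication-dependent genes that fell were H1f2 and H4c9. H1f2 had 62.4 to 83.8 CPM in F4/80+ libraries and 96.3 to 152 CPM in kidney libraries, with no overlap and a log2 fold change of -0.58 ± 0.09 (SE; edgeR adjusted p = 0.000108). In the Trp/Trp libraries alone it was -0.34 and the call was lost (edgeR adjusted p = 0.065). Lower without overlap between sample types were 6 of the 23 histone genes and 3671 of all 13578 genes. H4c9, an H4 gene with its annotated transcript ending 330 bases past the stem-loop, was at 0.808, 1.18 and 3.02 CPM in Trp/Trp and 2.33, 2.91 and 1.86 CPM in Arg/Arg F4/80+ libraries, and at 4.63 to 7.36 CPM in kidney libraries, with a log2 fold change of -1.53 ± 0.27 (SE; edgeR adjusted p = 0.000234). These 2 genes thus went against the other called genes of their class. Within the linker histones, H1f4 and H1f3 were higher and H1f2 and H1f0 lower in F4/80+ cells.

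**Figure D4:**
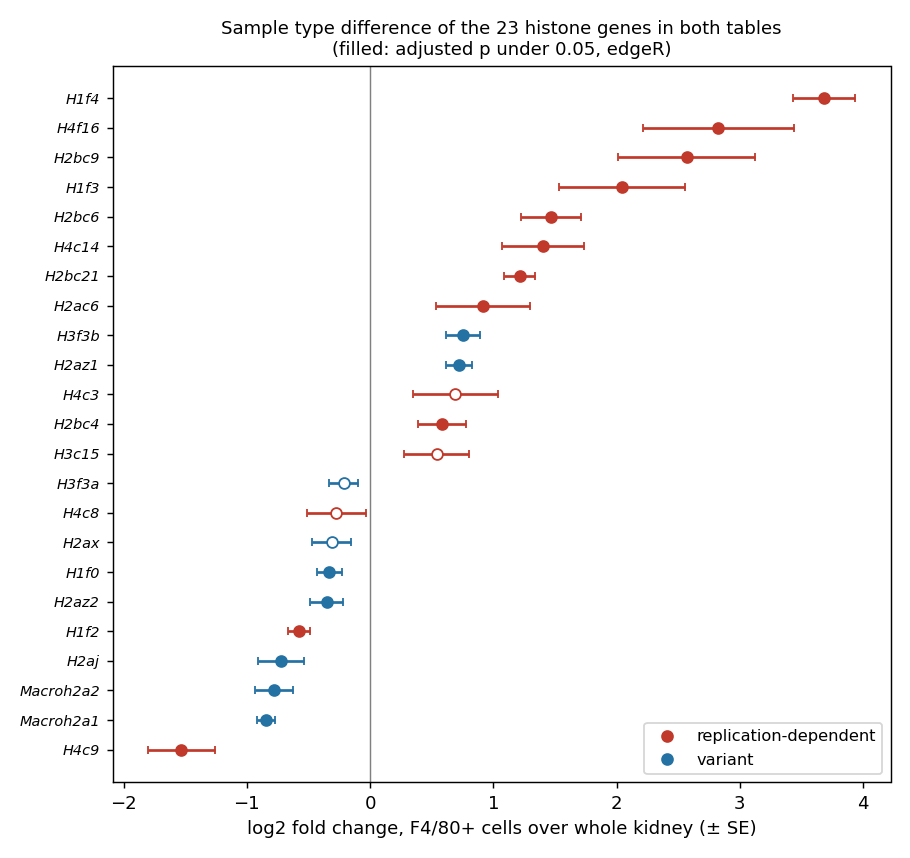
Log2 fold change of F4/80+ cells over whole kidney ± SE for the 23 histone genes in both tables, coloured by class, with filled points for an adjusted p under 0.05 in edgeR. Replication-dependent genes span -1.53 for H4c9 to 3.68 for H1f4, and the variants lie between -0.85 for Macroh2a1 and 0.75 for H3f3b.

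Among variants H3f3b and H2az1 rose. H3f3b was at 251 to 539 CPM in F4/80+ libraries and 235 to 299 CPM in kidney libraries, with a log2 fold change of 0.75 ± 0.14 (SE; edgeR adjusted p = 0.000343). H2az1 was at 133 to 188 CPM in F4/80+ libraries and 97.5 to 115 CPM in kidney libraries, with 0.73 ± 0.11 (SE; edgeR adjusted p = 4.42e-05). Their paralogs had log2 fold changes below 0. H3f3a, at 125 to 224 CPM in F4/80+ libraries and 190.4 to 220 CPM in kidney libraries, had -0.21 ± 0.12 (SE; edgeR adjusted p = 0.126), but was called without Trp/Trp F4/80+ replicate 3 (-0.31, adjusted p = 0.0205) and without TMM scaling (-0.34, adjusted p = 0.028). H2az2 had -0.35 ± 0.13 (SE; edgeR adjusted p = 0.031), a call lost in 20 alternatives. The macro-H2A genes, whose products carry a large non-histone domain and are linked to silent chromatin, both fell. Macroh2a1 was at 36.3 to 43.7 CPM in F4/80+ libraries and 74.5 to 78.6 CPM in kidney libraries, with -0.85 ± 0.07 (SE; edgeR adjusted p = 4.97e-07), and Macroh2a2 had -0.78 ± 0.16 (SE). H2aj and H1f0 also fell, with log2 fold changes of -0.72 ± 0.19 and -0.33 ± 0.10 (SE), and both calls were lost in the libraries of a single genotype, of Arg/Arg for H2aj and of Trp/Trp for H1f0.

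Genes that make, process and carry histones were read from 4 lists. None of their genes was called in either genotype comparison (0 of 13 for histone mRNA 3′ end processing, 0 of 9 for histone gene transcription, 0 of 23 for chaperones and 0 of 20 for S phase in kidney, and 0 of 12, 7, 22 and 19 in F4/80+ cells). Ncbp1, a subunit of the nuclear cap-binding complex, was at 46.4, 42.9 and 52.3 CPM in Trp/Trp kidneys, against 59.0, 55.05 and 49.1 CPM in Arg/Arg kidneys, with a log2 fold change of -0.23 ± 0.09 (SE; edgeR unadjusted p = 0.0398). Slbp, the stem-loop binding protein, had -0.06 ± 0.09 (SE) in kidney and 0.24 ± 0.31 (SE) in F4/80+ cells. The S phase list gave a median of 0.01 in kidney and 0.10 in F4/80+ cells, with 10 of 20 and 11 of 19 genes above 0. In F4/80+ cells the proliferation marker Mki67 was at 13.3, 27.1 and 21.5 CPM in Trp/Trp, against 13.7, 9.35 and 11.4 CPM in Arg/Arg libraries, with 0.70 ± 0.28 (SE; edgeR unadjusted p = 0.0276). Rrm2, a ribonucleotide reductase subunit, had 0.87 ± 0.37 (SE; edgeR unadjusted p = 0.0362). The chaperone gene Nap1l1 had -0.59 ± 0.26 (SE; edgeR unadjusted p = 0.042) in F4/80+ cells.

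Between sample types the same lists moved in both directions. Of 20 S phase genes 6 rose and 6 fell in F4/80+ cells with a median of -0.08, beside the calls of 32.3% and 32% of all genes. Mki67 and Mcm4, a helicase subunit, rose by 1.08 ± 0.21 and 0.72 ± 0.12 (SE). By mean, Mcm5 (3.13 CPM in F4/80+ cells and 6.24 CPM in kidney) and Mcm6 (17.3 CPM in F4/80+ cells and 24.9 CPM in kidney) were lower. Of 8 transcription genes 2 rose, namely Pou2f1, which encodes the octamer-binding OCT1, at 1.27 ± 0.12, and Npat, the coactivator of histone genes, at 1.09 ± 0.11 (SE), and 2 fell, E2f1 at -1.44 ± 0.27 and Cdk2 at -0.74 ± 0.22 (SE). Of 13 genes of 3′ end processing 4 rose and 4 fell, among them Casp8ap2, a component of histone locus bodies, at 1.61 ± 0.12, and Upf1 and Sympk, which act in histone mRNA decay and 3′ end cutting, at -1.83 ± 0.12 and -1.77 ± 0.13 (SE). Of 23 chaperone and exchange genes 9 rose and 6 fell, with Srcap, the ATPase that deposits H2A.Z, at 3.07 ± 0.12 and Rbbp4 at -1.90 ± 0.09 (SE).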

How the data were processed

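Poly(A)-selected RNA was sequenced from 12 libraries in 4 groups, and the labels gave the genotype, sample type and replicate number of each. STAR, DRAGEN, DESeq2 and mm10 were named in the submitters' processing notes, while the counting method and its use of strand were not given in the sources used here. For each sample type the authors deposited a table with raw counts per gene and library. The deposited log2 fold changes, ratio (fold), p-values and adjusted p-values, the signal column (the mean normalized count) and the score columns (SE and Wald statistic) were the authors' DESeq2 output, and deposited fold changes are given as Trp/Trp over Arg/Arg.

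CPM and CPM per kb of exon were computed here over nuclear protein-coding counts, with exon lengths from GENCODE vM21, in which all 37 genes had the span given in the tables. Genes were kept by filterByExpr (minimum count 10, minimum total 15), scaled by TMM and compared with the edgeR quasi-likelihood test (edgeR 4.0.16, limma 3.58.1, R 4.3.3), adjusted by Benjamini-Hochberg over all genes of the fit at a threshold of 0.05. Genotypes were compared within each table. Sample type, averaged over genotypes, and its interaction with genotype were fitted over all 12 libraries on the nuclear protein-coding genes of both tables. The SE is the absolute log2 fold change divided by the square root of F. DESeq2 1.42.0, no TMM, no filter, the replicate number as a block, each library left out, nuclear coding genes only, single genotypes and limma voom with quality weights were alternatives, and leaving out libraries in DESeq2 was added after seeing the data. The fits were tested on simulated counts. Plots used Python 3.11.15 and matplotlib 3.10.9.

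Total counts were 35.9 to 51.6 M per F4/80+ library and 19.6 to 54.7 M per kidney library, and the common biological coefficient of variation was 0.28 in F4/80+ cells and 0.101 in kidney. The histone genes and all lists were chosen with earlier results of these data known. The genes described were the 6 of highest CPM per sample type, up to 8 of smallest p per genotype comparison, the 6 largest changes in each direction between sample types where the mean count reached 50, and up to 4 of smallest p from each list. A gene that this rule named is not reported here.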

Additional observations from a re-analysis of the deposited data

Results flagged for a closer look

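Histone rows left out by their symbol, or as a pseudogene, also had counts in every library of the sample types given here. H2aw, an H2A gene, averaged 11.6 CPM in F4/80+ cells and 7.16 CPM in kidney, and Cenpa, the H3 variant of centromeres, averaged 3.96 CPM in F4/80+ cells and 2.87 CPM in kidney. H2bu2, an H2B gene, averaged 0.845 CPM in kidney, and H3f3c, annotated as a processed pseudogene, averaged 1.13 CPM in F4/80+ cells. All lie above the limit that a count of 0 allows, and none entered the class sums.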

How the results depend on the processing

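In the genotype comparisons edgeR called 0 histone genes in every alternative run. With DESeq2, 15 genes were called in kidney, 1 of them a histone gene, and 4 in F4/80+ cells, and 7 had an interaction. Leaving out a library gave 0 to 51 called genes and 0 to 1 called histone genes in kidney, 0 to 964 called genes in F4/80+ cells, and 0 to 1466 called genes with 0 to 1 called histone genes for the interaction, where the highest count came without Arg/Arg F4/80+ replicate 1 (580 in edgeR). Between sample types, histone genes that rose numbered 9 to 13 and those that fell 6 to 8 when a library was left out. In the Trp/Trp libraries alone 7 rose and 4 fell, with fewer libraries in the fit. Without TMM the median log2 fold change of all genes moved to 0.23 in the F4/80+ genotype comparison, -0.13 between sample types and 0.14 in the interaction. The limits are depth in F4/80+ cells, where most genes of the clusters had under 50 counts a library, and 3 replicates per group. Library composition also differed, with nuclear protein-coding counts of 6.88 to 11.1 M out of totals of 35.9 to 51.6 M in F4/80+ libraries. In kidney libraries they were 17.8 to 49.99 M out of 19.6 to 54.7 M.

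The labels do not tie same-numbered mice together, so the numbers were not taken as pairs. The deviations of same-numbered libraries from their group means had correlations of -0.41 to 0.13. With the replicate block edgeR called 0 histone genes in either genotype comparison and for the interaction, and 10 rose and 6 fell between sample types, where H2ac6 (0.89, adjusted p = 0.0511) and H2az2 (-0.35, adjusted p = 0.0544) were not called.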
